A study of Danio rerio with 9 samples.

Results

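Pigment cell genes were followed in zebrafish larvae of 3 genotypes under 3 lightings. The set was made of 4 genes of pteridine synthesis and of the yellow xanthophores (gch2, pts, xdh, pax7a) and 6 genes of melanin synthesis and of the black melanophores (tyr, tyrp1b, dct, pmela, slc45a2, mitfa). Members were all probes, other than controls, whose transcript accession belongs to 1 of these 10 genes. This gave 20 probes of 9 genes, out of 43603 probes and 13443 named genes on the array, with 10 probes in each branch. No probe matched xdh, the dehydrogenase that makes yellow pteridines, so it was not analysed here. On at least 1 array, 19 of the 20 probes were well above background, and the other is a second tyr probe that was not well above background on any of the 9 arrays.

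Whole larvae at 6 dpf (days post fertilization) gave the RNA, which was read on 9 1-colour Agilent arrays, 1 for each condition. WT larvae were compared with DKO larvae, which carry nonsense mutations of zPer2 and zCry1a made with TALENs, and with TKO larvae, which carry a CRISPR-Cas9 mutation of zCry2a besides those 2 alleles. All larvae were raised in constant darkness from fertilization, and at 6 dpf they received light for 3 h (3-h light) or 12 h (12-h light) or stayed in darkness. For DKO larvae all RNA was prepared 12 h after the light came on, in the 3-h group as well, while the time for WT and TKO larvae is not given in the sources used here. The zebrafish were of the TL strain, and the number of larvae behind each RNA is not given in the sources used here.

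Zebrafish have black melanophores, yellow xanthophores and reflective iridophores, all from the neural crest. Melanin is made from tyrosine inside melanosomes, and the retinal pigment epithelium of the eye makes it too. Yellow pteridines are made from GTP, and iridophores reflect light from crystals of purines, so that both of these classes draw on purine synthesis. Zebrafish larvae disperse melanosomes in the dark and gather them in bright light under hormonal and visual control, a movement of granules that needs no change in the RNA measured here.

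Each slide held the arrays of 1 genotype, so genotype and slide cannot be told apart, and lighting cannot be told apart from position on the slide. On each array 85.9 to 89.8% of spots were well above background. The TKO dark array stood apart from the others: a median of 7.73% of probes lay at least 2-fold from another array there, against 1.58 to 3.25% for the other 8 arrays. All markers that had a probe, for muscle, photoreceptors, liver, pancreas, skin, red cells, nervous system and gut, were well above background on all 9 arrays, but some moved with the conditions. At 12-h light all 6 probes of red cell markers were called lower than in darkness (median -1.04, log2), as were all 7 of gut markers (-0.50), 9 of 11 of liver markers (-0.58) and 5 of 13 of photoreceptor markers (-0.12). In the same comparison 2 of 6 pancreas probes were called higher (0.17), and 21.5% of all probes were called. No probe of the muscle (8 probes), skin (17) or nervous system (4) markers was called there, with medians of 0.08, -0.01 and -0.11. The summed level of the red cell markers was 7.76 to 8.24 in darkness and 6.77 to 6.91 at 12-h light, that of the gut markers 7.41 to 8.50 and 6.81 to 7.07. Skin markers were called lower on 7 of 17 probes in TKO and on 4 in DKO larvae, with medians of -0.23 and -0.18. Of all probes 22.5% and 12.0% were called there. Liver markers were called higher on 3 and lower on 2 of 11 probes in DKO larvae, and on 2 and 2 in TKO larvae. Gut markers were called higher on 2 of 7 probes in each mutant. Pancreas markers were called lower on 1 of 6 probes in DKO and on 2 in TKO larvae. In TKO larvae 3 of 13 photoreceptor and 1 of 4 nervous system probes were also called lower. The part of these tissues in the values of the pigment genes was not tested. The zCry1a RNA (cry1a, probe A_15_P104739) had a log2 ratio to WT larvae of -1.27 in DKO and -1.42 in TKO larvae in darkness, while per2 (A_15_P102459) had 0.28 and -0.51, and cry3a, the current symbol of zCry2a (A_15_P105520), had -0.07 and -0.86. A nonsense mutation need not remove its RNA, so these probes do not check the genotypes.

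Values are given as log2 levels, the log2 signal of a probe minus that of the array's 75th percentile, and levels of different probes cannot be set against each other. With 1 array per condition a ratio of 2 arrays has no test. For scale, the spread between repeated spots of a ratio was 0.192 (log2, SD), which covers spotting error alone and not differences between larvae. Tests came from limma on all 9 arrays, with terms for genotype and lighting, and a probe was called where its p, adjusted by Benjamini and Hochberg's method over 40247 probes, was under 0.05. These p-values measure the spread that the 2 terms leave between single arrays.

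Among the members, the widest fitted differences between light and darkness were those of gch2, the GTP cyclohydrolase that opens pteridine synthesis in pigment cells. Its RNA was about 3- to 4-fold lower after light in WT larvae, it was as low in DKO larvae only after 12-h light, and after 12-h light in TKO larvae it was near its level in darkness. All 5 gch2 probes were well above background on all 9 arrays and showed this pattern. The pattern rests on 1 array per condition. In the tests below, 1 of the 5 probes was called lower at 12-h light, and no difference between genotypes in the light response was called. On probe A_15_P738231 the log2 levels in WT larvae were 0.01 in darkness, -1.48 after 3-h light and -1.77 after 12-h light. In DKO larvae they were 0.05, -0.53 and -1.81 on the same probe. In TKO larvae they were -0.09, -1.01 and -0.41. On this probe the 3 dark arrays therefore lay within 0.14 of each other, while the 12-h light arrays spanned 1.40. On the other 4 probes the dark arrays spanned 0.36 to 0.68 and the 12-h light arrays 1.71 to 2.07.

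**Figure D1:**
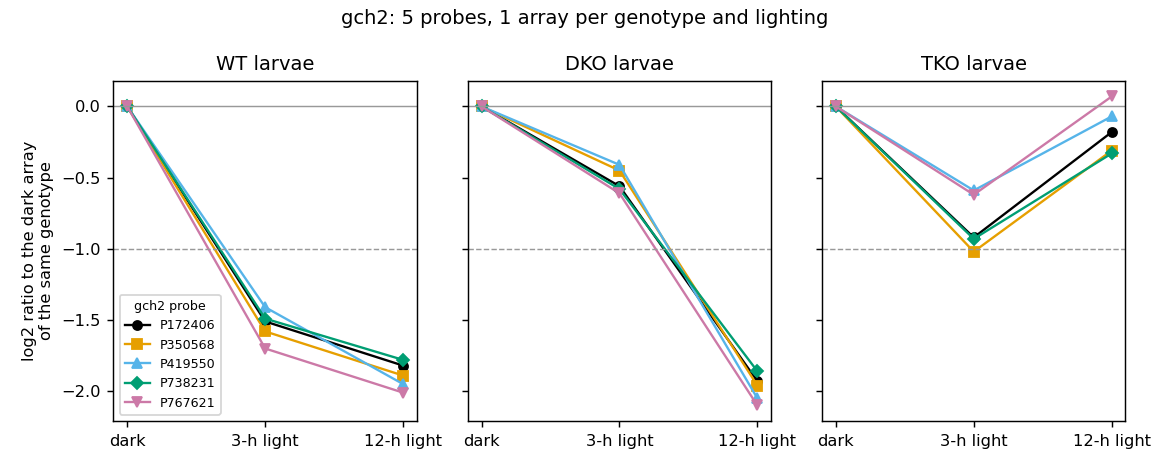
Log2 ratio of each gch2 probe to the dark array of its genotype, with lighting on the x axis, 1 panel for each genotype and 1 line for each of 5 probes; the dashed line marks a 2-fold lower signal and no error bars are drawn because each point is 1 array. All 5 probes lie past the dashed line at both light points in WT larvae, at 12-h light alone in DKO larvae, and only 1 probe, at 3-h light, does in TKO larvae.

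In WT larvae the ratio of 3-h light to darkness ranged over the 5 probes from -1.70 to -1.41 (log2), with a median of -1.51 or 2.85-fold lower. After 12-h light it ranged from -2.01 to -1.78, with a median of -1.89 or 3.71-fold lower. All 5 probes were thus at least 2-fold lower under both light exposures, where 1.31% (3-h light) and 2.29% (12-h light) of all probes were 2-fold apart. None of the other 14 members measured in WT larvae was past 2-fold, though mitfa read 1.95-fold lower at 12-h light, where it was not well above background. With median scaling or quantile normalization 6 members were past 2-fold at 12-h light.

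In DKO larvae the 5 ratios after 3-h light were between -0.61 and -0.41, with a median 1.47-fold lower. After 12-h light they were between -2.10 and -1.86, with a median 3.89-fold lower. No member passed 2-fold at 3-h light in DKO larvae, where 0.825% of all probes did. At 12-h light 6 did, the 5 gch2 probes and mitfa, against 2.90% of all probes.

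In TKO larvae the 3-h light ratios of gch2 were between -1.02 and -0.59, with a median 1.89-fold lower. After 12-h light they were between -0.33 and 0.07, with a median 1.13-fold lower. In the TKO larvae 1 gch2 probe (A_15_P350568) was 2.02-fold lower at 3-h light, where 6.23% of all probes were 2-fold apart. No member was 2-fold apart at 12-h light, where 7.90% of all probes were. Since both TKO ratios rest on the TKO dark array, the same arrays were also set against WT arrays of equal lighting.

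Set against WT larvae, gch2 was close in darkness, with log2 ratios over the 5 probes of 0.04 to 0.68 in DKO and -0.37 to 0.49 in TKO larvae. At 3-h light it was 0.95 to 1.81 higher in DKO larvae, a median of 2.55-fold, and 0.47 to 1.05 higher in TKO larvae, a median of 1.64-fold. At 12-h light it was -0.05 to 0.62 in DKO larvae and 1.36 to 2.07 in TKO larvae, where the median was 3.41-fold higher and all 5 probes passed 2-fold. DKO larvae thus stood above WT larvae mostly at 3-h light, and TKO larvae mostly at 12-h light.

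Over the 3 genotypes together, the limma fit gave gch2 differences of -1.39 to -1.31 (log2) between 12-h light and darkness. Probe A_15_P738231 was called lower (-1.32, SE 0.36, adjusted p = 0.0449), and the other 4 probes had adjusted p between 0.0553 and 0.0794. The call was lost, with adjusted p between 0.0593 and 0.151, without any 1 of the DKO 12-h light, DKO dark, TKO 3-h light, WT 12-h light, WT 3-h light or WT dark arrays, where the difference was between -1.32 and -0.95, and with the authors' scaling (-1.30, adjusted p = 0.0518). Without the TKO 12-h light array the difference of this probe was -1.80 (adjusted p = 0.022). Markers of red cells, gut and liver were called lower in the same comparison (medians of -1.04, -0.50 and -0.58). No skin, muscle or nervous system marker was called there. At 3-h light the 5 differences were -1.01 to -0.80, none of them called (adjusted p 0.12 to 0.232). Neither DKO larvae (0.31 to 1.04) nor TKO larvae (0.57 to 1.20) were called different from WT larvae when the lightings were averaged.

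A fit with a light response for each genotype, which takes both light arrays of a genotype together, asked whether the responses differ. For gch2 the response of TKO larvae differed from that of WT larvae by 1.01 to 1.58 (log2, SE 0.78 to 0.97), with adjusted p between 0.341 and 0.511. For DKO against WT larvae the differences were 0.42 to 0.53, each with an adjusted p of 1. For TKO against DKO larvae they were 0.54 to 1.08, with adjusted p between 0.485 and 0.738. None of the 19 member probes was called in any of the 3 comparisons of light responses, and of all 40245 probes 0% were called, though 1395 (DKO against WT), 9210 (TKO against WT) and 9788 (TKO against DKO) had an unadjusted p under 0.05. Among the members 0, 2 and 3 probes did so, and none of them was a gch2 probe. The contrast of DKO larvae between 3-h and 12-h light cannot be tested, since each rests on 1 array.

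The 5 named genes whose levels followed the mean of the gch2 probes most closely over the 9 arrays, out of 23851 probes of named genes well above background on all of them, were arf1, a regulator of vesicle traffic (r = 0.953), cdc45, a factor of DNA replication (0.950), ccna2, the cyclin of S phase and mitosis (0.946), tfa, the transferrin of the liver (0.940), and tk1, the thymidine kinase of dividing cells (0.935). The 9 arrays share slides within a genotype, and r is given as a description. It takes no account of the size of a change: arf1 lay between 1.41 and 1.81, while the gch2 mean had a range of 2.23. The level of ccna2 was -3.92, -4.83 and -5.31 in WT larvae in darkness, 3-h light and 12-h light. It was -3.54, -4.16 and -5.08 in DKO larvae and -3.78, -4.68 and -4.48 in TKO larvae, so that it too was lowest at 12-h light in WT and DKO larvae but not in TKO larvae.

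The next step of the pathway, pts (pyruvoyltetrahydropterin synthase), did not follow gch2. On probe A_15_P174386 the levels of pts were -1.75, -1.40 and -1.45 in WT larvae, -1.44, -1.07 and -0.91 in DKO larvae and -1.30, -1.18 and -1.33 in TKO larvae. The fitted differences of its 2 probes were 0.27 and -0.04 at 12-h light and 0.28 and 0.23 at 3-h light. None was called (adjusted p 0.128 to 0.842), and none between genotypes.

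For pax7a, a transcription factor of the xanthophore lineage, no probe was called either. Its 3 probes had ranges of 0.46, 1.07 and 0.50 (log2) over the 9 arrays, and the widest, on A_15_P115194, came from the TKO dark array at -4.92, against -4.30 to -3.85 on the other 8. That probe lay 0.96 below the TKO 3-h light array, whereas A_15_P105355 stood at -4.57 in TKO darkness and at -4.96 after 3-h light. The probes of pax7a therefore ran in opposite directions on the TKO arrays. Fitted differences at 12-h light were 0.11, 0.44 and 0.19 for the 3 probes (adjusted p 0.597, 0.109 and 0.103).

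**Figure D2:**
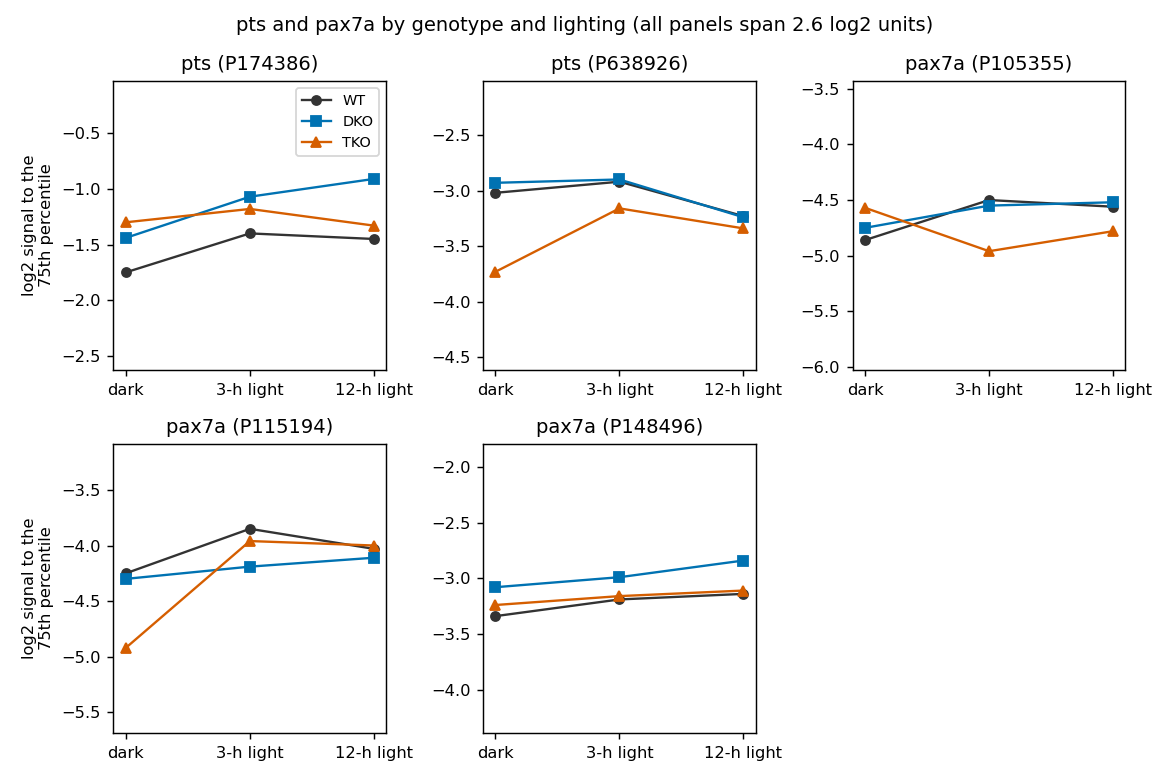
Log2 level (relative to the array's 75th percentile) of the 2 pts and 3 pax7a probes against lighting, 1 line for each genotype, 1 array per point and hence no error bars, with all panels spanning an equal number of log2 units. The lowest pax7a point on A_15_P115194 is the TKO dark array at -4.92.

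Across the other genes of pteridine, carotenoid and xanthophore biology, a list of 24 genes of which 21 could be tested, 10 genes rose and 1 fell between darkness and 12-h light. By probes, 15 of 42 were called higher and 1 lower, where 21.5% of all probes were called (5191 higher and 3473 lower). The median of the 42 probes was 0.26, against 0.09 over all probes. The largest differences were those of genes that handle carotenoids: bco1l, related to the enzyme that cleaves beta-carotene, rose by 2.02 (log2, SE 0.20, adjusted p = 0.0033), and scarb1, a lipoprotein receptor that takes up carotenoids, rose by 1.50 and 1.45 on its 2 probes (adjusted p = 0.0031 and 0.00495). Of bco1l the levels were -4.07, -4.29 and -2.52 in WT larvae, -3.81, -3.36 and -1.54 in DKO larvae and -3.61, -2.78 and -1.39 in TKO larvae. In every genotype the 12-h light array was thus the highest. The paper already lists bco1l and scarb1 among the genes most strongly induced by 12-h light in DKO larvae, on arrays of this series. This list was drawn up with earlier results of these data known, so their rise is not independent support. The aldehyde oxidase aox6 rose by 0.98 (adjusted p = 0.0033), and th, the tyrosine hydroxylase of catecholamine neurons, whose cofactor is a pterin, rose on 2 of its 3 probes (0.52 and 0.46). The gene that fell was spra, a sepiapterin reductase, on 1 of 2 probes (-0.54, adjusted p = 0.0155). The calls of bco1l, scarb1, aox6 and 1 th probe stood without any 1 array, while that of spra was lost without the DKO or TKO 12-h light array and that of the other th probe without any of 5 arrays.

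Of the genes not called, pcbd1, which recycles the pterin cofactor, had differences of -0.73 on both probes (adjusted p = 0.058 and 0.0748) and aox5 had 0.26 (adjusted p = 0.381). The paralog gch1, chosen after its values were seen, was called higher on 1 of 2 probes (0.50, adjusted p = 0.0213), a call lost without any of 5 arrays. At 3-h light 2 genes of the list rose and none fell, with 3 of 42 probes called where 6.35% of all probes were. The genes scarb1, bco1l and th are also used in gut, liver or brain, and whole larvae do not separate these sources. Without the TKO dark array 10 genes rose and 2 fell at 12-h light, and without all 3 TKO arrays 6 rose. Of all 40247 probes, 9780 and 5221 were called in these fits, against 8664 with all arrays. Over all alternatives 4 to 12 rose. Against WT larvae, 0 genes of the list were higher and 2 lower in DKO larvae (4 of 42 probes, where 12.0% of all probes were called). In TKO larvae 3 were higher and 6 lower (4 probes higher and 9 lower, where 22.5% were called). Without the TKO dark array the counts were 2 higher and 6 lower in DKO and 3 higher and 7 lower in TKO larvae. Of all 40247 probes, 10235 (DKO) and 9669 (TKO) were called in that fit, against 4821 and 9049 with all arrays. The TKO calls of slc2a15a (-0.59 and -0.53) and of 1 sox5 probe (-0.67) stood without any 1 array.

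In the melanin branch, tyrp1b, mitfa and a single pmela probe fell at 12-h light, by 0.26 to 0.77 on the log2 scale. Probes of tyr, dct and tyrp1b were called higher in the mutants, those of dct in DKO larvae on 1 of 3 probes. Tyrosinase (tyr), the first enzyme of melanin synthesis, had the widest difference between genotypes. On its measurable probe, A_15_P196231, the log2 levels were -6.16, -5.58 and -6.06 in WT larvae (darkness, 3-h light, 12-h light). They were -4.24, -3.94 and -3.96 in DKO larvae, and -4.89, -4.12 and -4.24 in TKO larvae. The 6 mutant arrays thus all lay above the 3 WT arrays, and in each genotype the dark array was the lowest. How many of all probes separate WT from mutant arrays in this way was not counted.

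Set against WT larvae of equal lighting, tyr was 3.77-fold higher in DKO larvae in darkness, 3.11-fold at 3-h light and 4.29-fold at 12-h light. In TKO larvae it was 2.41-, 2.75- and 3.52-fold higher. The fit gave 1.88 for DKO (log2, SE 0.13, adjusted p = 0.000602) and 1.52 for TKO larvae (SE 0.13, adjusted p = 0.00125). Both calls stood without any 1 of the 9 arrays, with differences of 1.76 to 1.99 for DKO and 1.38 to 1.65 for TKO larvae. The probe was dim: the WT signals were 8.88, 11.5 and 8.69 units, where the lowest signals well above background on those arrays were 7.63, 6.66 and 5.31. After quantile normalization of normexp-corrected signals, which compresses dim spots, the differences were 0.48 and 0.35, still called (adjusted p = 0.00366 and 0.00957). With lighting, tyr differed by 0.55 at 3-h light (adjusted p = 0.0581) and 0.34 at 12-h light (adjusted p = 0.103), and neither was called.

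**Figure D3:**
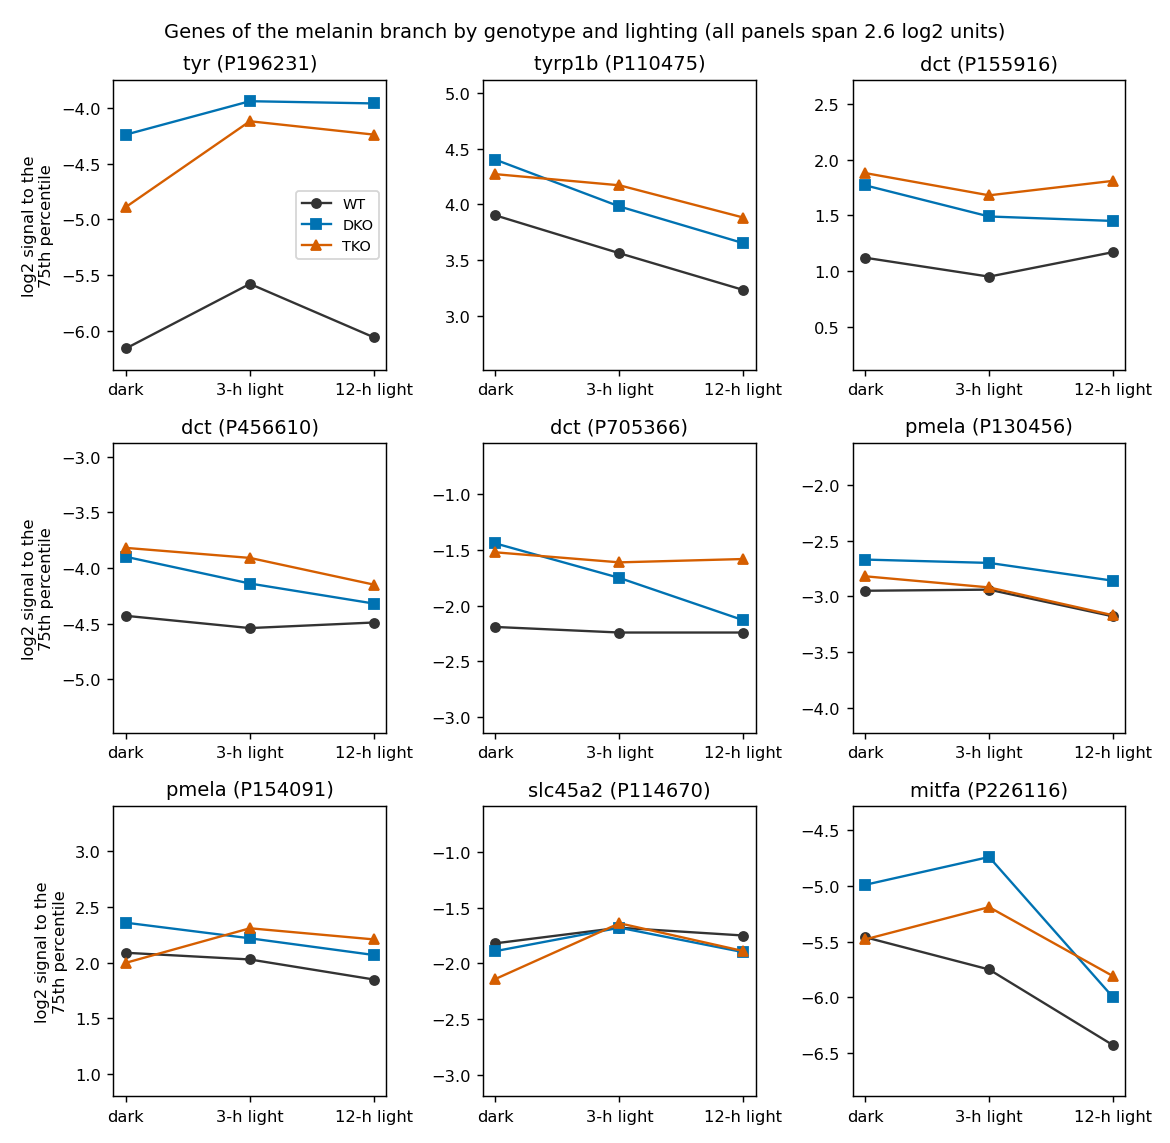
Log2 level (relative to the array's 75th percentile) of the 9 measurable probes of melanin genes against lighting, 1 line for each genotype and 1 array per point, with all panels spanning an equal number of log2 units. The WT points of tyr, -6.16 to -5.58, lie below all DKO and TKO points, and tyrp1b is lowest at 12-h light in each genotype.

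Of the other melanin members, dct and tyrp1b had probes called higher in the mutants, whereas pmela, slc45a2 and mitfa had none. For dct, the dopachrome tautomerase, probe A_15_P155916 read 1.12, 0.95 and 1.17 in WT larvae, 1.77, 1.49 and 1.45 in DKO larvae and 1.88, 1.68 and 1.81 in TKO larvae. TKO larvae were called higher on all 3 dct probes (0.72, 0.53 and 0.66, adjusted p = 0.00457, 0.0134 and 0.0206). DKO larvae were called higher on A_15_P155916 (0.49, SE 0.09, adjusted p = 0.019), and the other 2 probes had 0.37 and 0.45 (adjusted p = 0.055 and 0.0876). The DKO call was lost in the light arrays alone (0.41), with no term for lighting, and without the DKO 3-h light (0.47), DKO dark (0.42), WT 3-h light (0.47) or WT dark array (0.44). The TKO calls of A_15_P456610 were lost without the TKO 3-h light (0.48), WT 3-h light (0.49) or WT dark array (0.47), with no term for lighting (0.53, adjusted p = 0.051) and with normexp correction (0.13, adjusted p = 0.127). Those of A_15_P705366 were lost without the TKO 12-h light (0.57), TKO 3-h light (0.68), WT 12-h light (0.74), WT 3-h light (0.65) or WT dark array (0.58). Lighting gave no call for dct (-0.27 to -0.11 at 12-h light).

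Tyrosinase-related protein 1 (tyrp1b), another melanosomal enzyme, moved with both factors. Its levels were 3.90, 3.56 and 3.23 in WT larvae, 4.40, 3.98 and 3.65 in DKO larvae and 4.27, 4.17 and 3.88 in TKO larvae. In each genotype the order was darkness, 3-h light, 12-h light from high to low. The gene fell by 0.60 between darkness and 12-h light (SE 0.10, adjusted p = 0.0105). It was higher by 0.44 in DKO (adjusted p = 0.0303) and by 0.54 in TKO larvae (adjusted p = 0.013). The light call was lost without the DKO 12-h light array alone (-0.56, adjusted p = 0.0654). The DKO call was lost without any array but TKO dark and TKO 12-h light, with differences of 0.37 to 0.49, and with the authors' scaling or quantile normalization (0.43 in both). The TKO call was lost without the TKO 12-h light (0.48), TKO 3-h light (0.50), WT 12-h light (0.52) or WT 3-h light array (0.53). Both were lost with no term for lighting.

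For mitfa, the transcription factor that specifies melanophores, the levels were -5.46, -5.75 and -6.43 in WT larvae, -4.99, -4.74 and -6.00 in DKO larvae and -5.48, -5.19 and -5.81 in TKO larvae, and the WT 12-h light array was not well above background. In each genotype the 12-h light array was the lowest. In DKO larvae 12-h light left 2.0-fold less signal than darkness. In WT larvae the signal read 1.95-fold lower, a ratio that rests on the dim 12-h light array, and in TKO larvae it was 1.26-fold lower. The fall between darkness and 12-h light was called (-0.77, SE 0.17, adjusted p = 0.0275), whereas 3-h light differed by 0.08. The call was lost without the DKO 12-h light (-0.61), DKO dark (-0.75), WT 12-h light (-0.76) or WT dark array (-0.62). With normexp correction, which compresses dim signals, the difference was -0.12 (adjusted p = 0.1). Between 3-h and 12-h light it was -0.85, not called (adjusted p = 0.183), and DKO larvae were higher by 0.64 (adjusted p = 0.063).

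Of pmela, which forms the fibrils on which melanin is laid down, probe A_15_P130456 fell by 0.26 at 12-h light (SE 0.07, adjusted p = 0.0495), from -2.95 to -3.18 in WT larvae, from -2.67 to -2.86 in DKO larvae and from -2.82 to -3.17 in TKO larvae. Its other probe differed by -0.10 (adjusted p = 0.524). The pmela call was lost without any 1 array other than TKO dark, with differences of -0.29 to -0.23, and also without the TKO arrays, with no filter, with the authors' scaling and with normexp correction (-0.12). For slc45a2, a transporter of the melanosome membrane, levels were between -2.14, on the TKO dark array, and -1.64, and no comparison was called.

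In all, 4 of 19 member probes were called between 12-h light and darkness, all lower (gch2, tyrp1b, pmela, mitfa), and these are 21.1% of the members where 21.5% of all probes were called. Between 3-h light and darkness none was called, against 6.35% of all probes. An unadjusted p under 0.05 was found there for 8 of 19 member probes and for 13203 of all 40247 probes. Between 12-h and 3-h light none was called, against 0.380%, and 3 member probes and 3359 of all probes had an unadjusted p under 0.05. The share called at 12-h light is thus the background share. The median over the members was -0.68 for the pteridine and -0.26 for the melanin branch at 12-h light, against 0.09 over all probes, and 5 of the 10 pteridine probes belong to gch2. The falls of tyrp1b, mitfa and a single pmela probe, like that of gch2, stand beside lower red cell, gut, liver and photoreceptor markers. Muscle, skin and nervous system markers had no call there, and pancreas markers were called higher on 2 of 6 probes. Whether these tissues have a part in the falls was not tested.

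Between genotypes, 3 of 19 member probes were called in DKO larvae (15.8%, where 12.0% of all probes were) and 5 in TKO larvae (26.3%, where 22.5% were). The shares called are thus near those of all probes. All 8 calls were higher in the mutant and belong to tyr, tyrp1b and dct. The 3 probes called in DKO larvae are among the 5 called in TKO larvae. Both mutants were set against the same WT arrays, so the 2 sets of calls are not independent. No member was called between TKO and DKO larvae, where 1.16% of all probes were. In that comparison 5 member probes and 7961 of all 40247 probes had an unadjusted p under 0.05. The median of the melanin member probes was 0.45 in DKO and 0.53 in TKO larvae, against -0.02 and -0.06 over all probes, and that of the skin markers was -0.18 and -0.23. The 33 probes of the further melanosome and melanophore genes had medians of -0.04 in DKO and -0.05 in TKO larvae, near those of all probes. In single pairs of arrays, tyr alone was 2-fold apart in darkness in DKO larvae (3.17% of all probes) and in TKO larvae (7.62%). At 3-h light 6 member probes passed 2-fold in DKO larvae (4 of gch2, mitfa and tyr; 2.88% of all probes) and 2 in TKO larvae (gch2 and tyr; 2.88%). At 12-h light tyr alone passed in DKO larvae (4.17%) and 6 probes in TKO larvae (5 of gch2, and tyr; 3.68%). RNA from whole larvae does not tell fewer pigment cells from less RNA per cell.

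**Figure D4:**
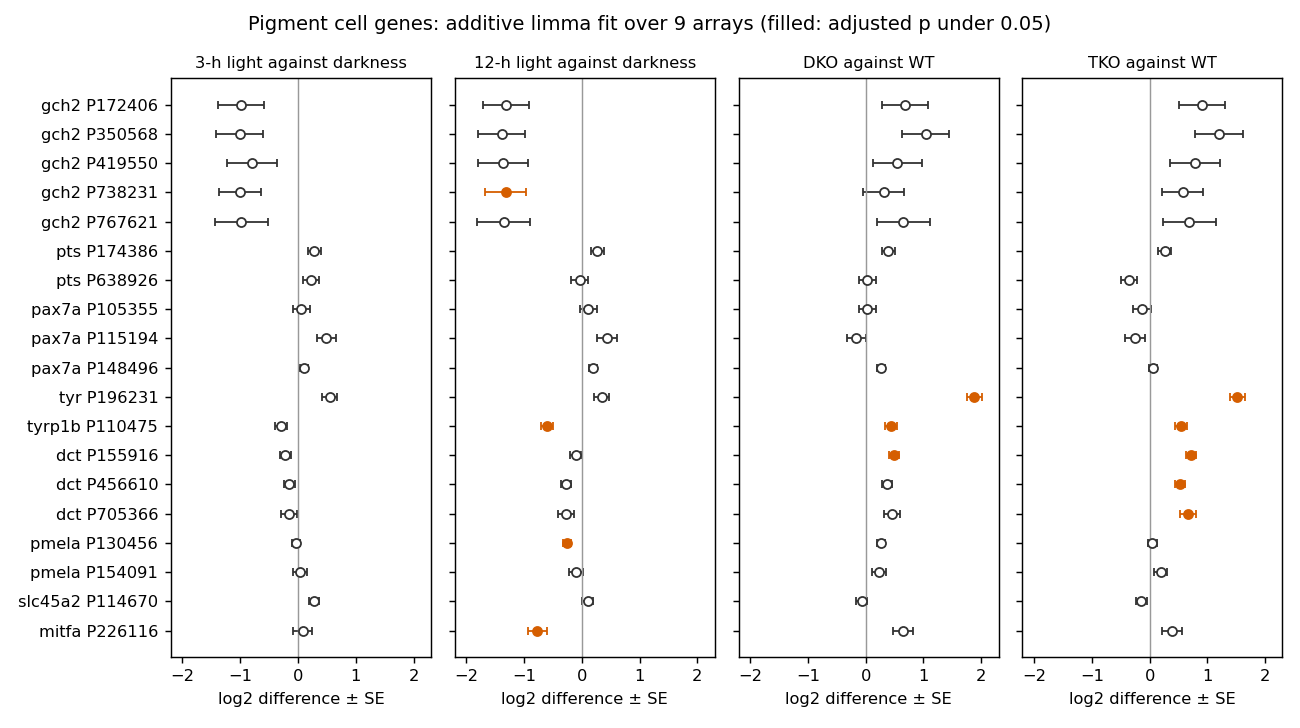
Fitted log2 difference (x axis) of the 19 measurable member probes (y axis) with its standard error, from limma over 9 arrays, for 4 comparisons; filled points have an adjusted p under 0.05. The filled points are gch2, tyrp1b, pmela and mitfa below 0 at 12-h light, and tyr, tyrp1b and dct above 0 in the mutants.

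The retinal pigment epithelium also holds melanin, and the genes listed as its markers moved in both directions. Whether each of them is confined to this tissue was not tested. Of 9 such genes, 5 rose and 2 fell at 12-h light (7 of 20 probes higher and 2 lower, where 21.5% of all probes were called), among them rdh5 (1.22, adjusted p = 0.00453) and rpe65a (0.71, adjusted p = 0.00503), enzymes of the visual cycle, and lrata (-0.84, adjusted p = 0.0367), the acyltransferase of that cycle. The lrata call was lost without any of 6 arrays, and those of rdh5 and rpe65a stood without any 1. Between genotypes, 1 gene was higher and 1 lower in DKO larvae (2 of 20 probes, where 12.0% of all probes were called) and 1 was higher and 2 lower in TKO larvae (with calls for 6 of 20 probes, where 22.5% were), with otx2b, a transcription factor of eye and brain, called both ways on different probes in TKO larvae. The summed level of the list was 4.93 to 5.27 (log2) over the WT arrays, 4.88 to 5.14 over the DKO and 4.87 to 5.17 over the TKO arrays, and it was 4.87 to 4.93 in darkness and 5.14 to 5.27 at 12-h light. All 9 genes were well above background on all arrays, and over all alternatives 2 to 5 rose and 0 to 3 fell at 12-h light. The part of this tissue in the levels of tyr, dct and tyrp1b was not tested.

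Of 31 further genes of melanosomes and melanophores, 21 were tested, and 4 rose and none fell at 12-h light. Called were 5 of 33 probes, where 21.5% of all probes were, and the median over the 33 was 0.10, against 0.09 over all probes. Those that rose were hps5, of a complex that sorts cargo to melanosomes (0.71 and 0.79 on 2 probes, adjusted p = 0.00683 and 0.00803), mlpha, which ties melanosomes to a motor (0.55, adjusted p = 0.0104), hps4, of a related complex (0.33, adjusted p = 0.038), and kita, the receptor of melanophore survival (0.31 on 1 of 2 probes, adjusted p = 0.0398). The hps5 calls stood without any 1 array, that of mlpha was lost without the DKO 12-h light array, and those of hps4 and kita were lost without any array but TKO dark. Not called were mc1r, the melanocortin receptor (0.81, adjusted p = 0.0765, well above background on 5 arrays), and slc24a5, a melanosomal exchanger (-0.13 and 0.04 on 2 probes). In TKO larvae 2 genes of this list were higher and 3 lower than in WT larvae, and in DKO larvae 2 were higher and none lower, which is 6 and 2 of 33 probes, where 22.5% and 12.0% of all probes were called. Without the TKO dark array the counts were 2 higher and 1 lower in TKO larvae and 2 higher and 2 lower in DKO larvae. Of all 40247 probes, 9669 (TKO) and 10235 (DKO) were called in that fit. Without that array 4 rose at 12-h light, with median scaling or quantile normalization 2, and over all alternatives 1 to 5. Of all probes 9780 were called at 12-h light without that array, 8196 with median scaling and 8283 with quantile normalization.

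**Figure D5:**
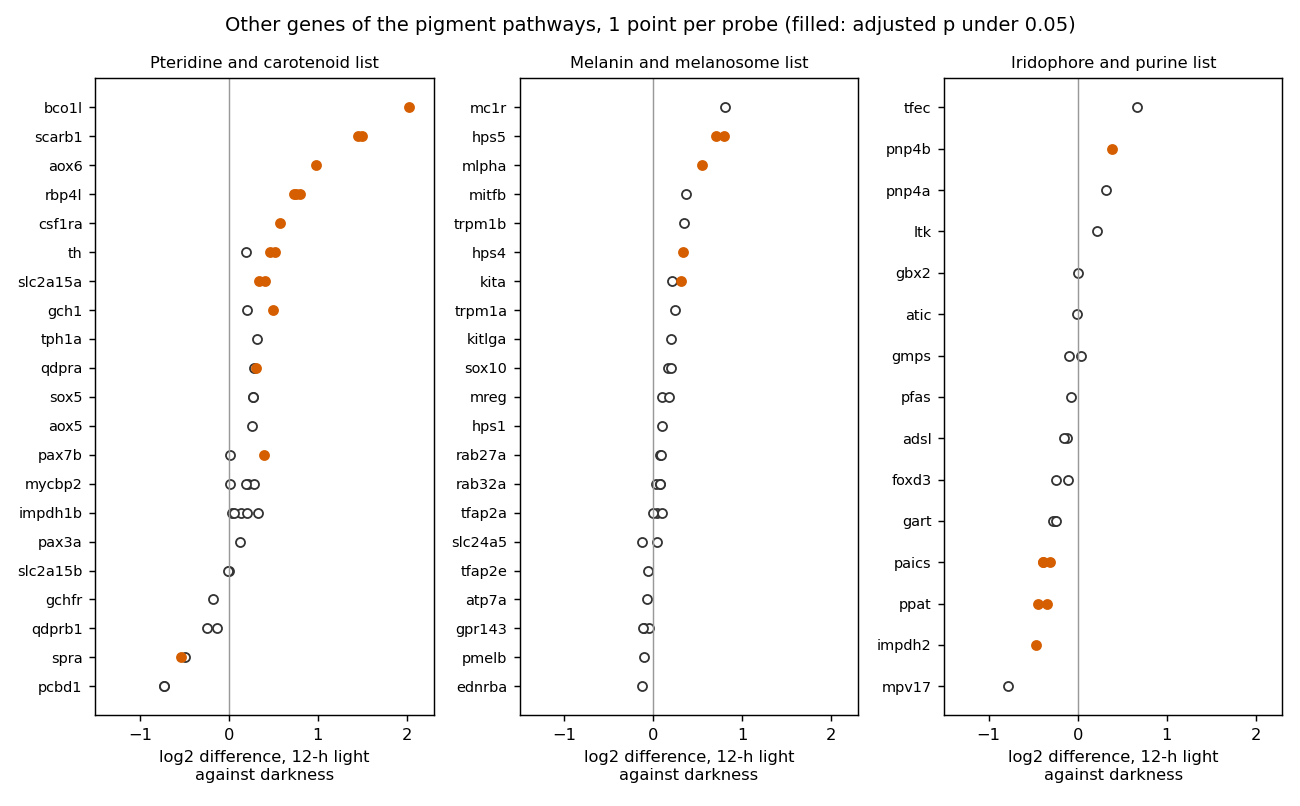
Fitted log2 difference between 12-h light and darkness (x axis) for the other genes of the pteridine, melanin and iridophore lists (y axis), 1 point per probe, filled where the adjusted p is under 0.05 and without error bars. The points of bco1l at 2.02 and scarb1 at 1.50 and 1.45 lie farthest to the right, and paics, ppat and impdh2 are filled to the left of 0.

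Among 15 tested genes of iridophores and purine synthesis, 1 rose and 3 fell at 12-h light. Of 23 probes 1 was called higher and 6 lower, where 21.5% of all probes were called, and their median was -0.16, against 0.09 over all probes. The genes that fell were paics on all 3 probes (-0.39, -0.39 and -0.31, adjusted p 0.0206 to 0.048), ppat on both probes (-0.35 and -0.45) and impdh2 (-0.47, adjusted p = 0.0366), enzymes that serve every dividing cell and not iridophores alone. Each of these probes lost its call without at least 5 of the 9 arrays in turn, and the paics probe at -0.31 without any 1. The gene that rose was pnp4b, a purine nucleoside phosphorylase (0.39, adjusted p = 0.0352), a call lost without any of 7 arrays. Over all alternatives 0 to 5 genes of this list fell and 0 to 2 rose. Its paralog pnp4a, a marker of iridophores, was called lower at 3-h light (-0.50, adjusted p = 0.0482) and higher at 12-h than at 3-h light (0.82, adjusted p = 0.0481), with levels of -0.38, -0.67 and 0.02 in WT, -0.39, -0.89 and 0.08 in DKO and -0.04, -0.75 and 0.05 in TKO larvae. In all 3 genotypes the 3-h light array was thus the lowest of pnp4a and the 12-h light array the highest. The call at 3-h light was lost without any 1 of the 9 arrays (-0.58 to -0.39, adjusted p 0.0506 to 0.22), and that between 12-h and 3-h light without any but TKO dark (0.75 to 0.91). Another gene of purine synthesis, impdh1b, was placed in the pteridine list and chosen here after its values were seen. In DKO larvae it was lower than in WT larvae on 3 of 5 probes (-1.13 to -0.85). In TKO larvae it was lower on 2 other probes (-0.55 and -0.47). Of the 3 DKO probes, A_15_P130406 and A_15_P631701 were called higher in TKO than in DKO larvae. The difference was 0.82 on both (adjusted p = 0.019 and 0.0199). On A_15_P631701 the levels were 2.14, 2.12 and 2.38 in WT, 1.29, 1.23 and 1.42 in DKO and 2.24, 2.11 and 2.05 in TKO larvae. With 1 array left out, the DKO calls stood in 7 to 9 of 9 fits and the TKO calls in 5 and 3. Those between the mutants stood in 4.

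Of 8 tested genes of pigment hormone signals and melanocortin receptors, each with 1 probe, 2 were called at 12-h light, where 21.5% of all probes were. The gene pomca, the precursor of the melanocyte-stimulating hormone, fell (-0.46, SE 0.12, adjusted p = 0.0367) and mc5ra, a melanocortin receptor, rose (0.44, adjusted p = 0.0351). The first call was lost without any of 5 arrays and the second without any of 7, TKO dark among them. The levels of pomca were 0.27, 0.22 and -0.16 in WT larvae, 0.33, 0.52 and 0.05 in DKO larvae and 1.15, 0.78 and 0.48 in TKO larvae. In TKO larvae pomca was higher than in WT larvae (0.69, adjusted p = 0.0108), a call that, with 1 array left out, was lost without the WT 3-h light array alone (adjusted p = 0.0552). Its paralog pomcb was lower (-0.97, adjusted p = 0.0398), but only 6 of 9 arrays read it well above background, and this call was lost without any of 7 arrays, TKO dark among them (-0.71). Over all alternatives 0 to 3 genes of the list rose and 0 to 1 fell at 12-h light. The receptor mc4r had a difference of -0.22 at 12-h light (adjusted p = 0.42). The hormone gene pmchl, chosen after its values were seen, was not called either. Its levels were -0.19, 0.16 and 1.32 in WT larvae, -0.37, 0.33 and 0.95 in DKO larvae and 1.15, 0.22 and 1.13 in TKO larvae.

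The 5 named genes closest to the mean of the tyr probes over the 9 arrays were tmem30c (r = 0.987), ppm1nb (0.961), naprt (0.957), ccdc71 (0.957) and si:ch73-127m5.2 (0.954). The correlation takes no account of the size of a change. The level of tmem30c lay between -1.08 and -0.95 on the 9 arrays, and that of ccdc71 between 0.87 and 1.14. The tyr mean had a range of 1.71 (log2). The level of naprt, an enzyme of NAD synthesis, was 0.40, 0.45 and 0.19 in WT larvae, 1.24, 1.11 and 0.91 in DKO larvae and 1.09, 1.12 and 0.90 in TKO larvae. The tyr mean includes the probe that was not well above background.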

How the data were processed

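Total RNA of whole larvae was labelled with Cy3. The deposited intensities are background-subtracted spot signals of Agilent Feature Extraction 11.5.1.1, per the file headers, and are not normalized between arrays. A deposited table holds the same intensities times 1 constant per array. The paper's methods name other array software and no test. Log2 values are not the authors' own but were computed here from the deposited intensities: the log2 75th percentile of each array was subtracted and spots of a probe were averaged, leaving out irregular spots. Dim signals were raised to the lowest well above background for ratios. limma 3.58.1 (R 4.3.3) fitted genotype and lighting (4 residual degrees of freedom) on probes well above background on at least 1 array, and was tested on simulated data. Probes were named through RefSeq accessions (26094 of 43603 paired with a symbol). A gene of a list counted as called where at least 1 probe passed and none passed the other way. All members are reported. Of each list the genes called at 12-h light are named, up to 4 in a direction by adjusted p, with examples of no call. Genes most alike have the highest Pearson r to the member of each branch with the widest range. Members and lists were chosen with earlier results of these data known. Alternatives were other scalings, background correction, filters, weights, leaving out arrays, and fold thresholds of 1.5 and 3. The number of arrays limits the precision.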

Additional observations from a re-analysis of the deposited data

Results flagged for a closer look

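Opposite light responses, with both light arrays of a genotype beyond the spot spread of 0.192 on one side of its dark array and both of another genotype on the other side, were found for 1 member probe, pax7a A_15_P105355. After 3-h and 12-h light its log2 level differed from darkness by 0.36 and 0.31 in WT larvae, by 0.19 and 0.23 in DKO larvae, and by -0.39 and -0.21 in TKO larvae. limma gave the difference between the responses of TKO and WT larvae as -0.64 (adjusted p = 0.13) and of TKO and DKO larvae as -0.51 (adjusted p = 0.154), neither called. On the pax7a probe A_15_P115194 the differences had the other sign, 0.63 (adjusted p = 0.135) and 0.79 (adjusted p = 0.104).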

How the results depend on the processing

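No paired analysis was possible because each group has 1 array. Of 19 member probes, 4 were called at 12-h light: with array weights 10 were, with limma's trend and robust options 7, with the authors' scaled values 2 and without the TKO arrays 7, and 0 to 7 with 1 array left out. Of all 40247 probes 8664 were called in this comparison, 12277 with array weights and 10595 with the trend and robust options. The authors' scaled values gave 7441, the fit without the TKO arrays 5221, and those with 1 array left out 1454 to 9780. At 3-h light the member count was 0, with array weights 9, with probes well above background on all 9 arrays 1, and 0 to 1 with 1 array left out. Over all probes it was 2556, with array weights 10803, and 0 to 3440 with 1 array left out. With probes well above background on all 9 arrays it was 4393 of 36499. For DKO larvae the member count was 3, with array weights 10 and with no term for lighting 1. It was 1 to 9 with 1 array left out, the highest without the TKO dark array. Over all probes it was 4821, with array weights 11274 and with no term for lighting 2763. With 1 array left out it was 2008 to 10235, the highest again without the TKO dark array. For TKO larvae the member count was 5, with array weights 9, with the brightest probe of each gene 3 and with no term for lighting 3. It was 2 to 7 with 1 array left out, the highest without the TKO dark array. Over all probes it was 9049, with array weights 15875 and with no term for lighting 3384. With the brightest probe of each gene it was 6062 of 28123, and with 1 array left out 2741 to 9669. Between TKO and DKO larvae the member count was 0, and with array weights 1, against 466 and 2168 of all probes. The light responses had 0 member calls under every setting. Other probes were called under some settings. With the trend and robust options 1834 (TKO against WT) and 2086 (TKO against DKO) of all 40245 probes were called. With normexp correction 1485 and 2052 were. The cause of these shifts was not tested. At a fold of 1.5, 2 probes passed in DKO and 10 in TKO larvae against WT at 12-h light, 9 in TKO larvae at 3-h light, 4 in DKO and 6 in TKO larvae in darkness, and against darkness 1 in DKO larvae (3-h light), and 7 (3-h light) and 2 (12-h light) in TKO larvae. At a fold of 3, 2 passed in DKO and 0 in TKO larvae against WT at 3-h light, 0 in TKO larvae in darkness, and against darkness 1 in WT and 0 in TKO larvae at 3-h light. The shares of all probes past these folds are not given here, so these counts cannot be set against them. In TKO larvae, median scaling gave 3 probes at 3-h light and the authors' scaled values 1 at 12-h light. No called member changed direction. Matching by gene name was not run. Dim signals limit tyr and mitfa, and 1 array per condition limits every ratio.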
